A study of Mus musculus with 4 samples.

Results

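The 9 genes described here are known products of the red cell lineage, measured in a cell fraction that was selected for B cells. They are the adult beta-globin genes *Hbb-bs* and *Hbb-bt*, the heme synthesis enzyme *Alas2*, the red cell membrane genes *Slc4a1*, *Epb42*, *Ank1* and *Rhag*, and the transcription factors *Klf1* and *Gata1*. They were picked by symbol as known red cell genes, with earlier results of these data known. All 9 were found among the 41214 genes of the count table. The question put to them was whether they differed between the genotypes or between single libraries.

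RNA-seq libraries were made from splenocytes carrying B220, the CD45 isoform that marks B cells, with 2 libraries per genotype. Red cells had been lysed before B220+ cells were taken on magnetic beads, and the libraries were made after depletion of ribosomal RNA. MIZ-1WT libraries came from mice labelled wild type, with no statement in the sources used here on whether they carry Cre, and MIZ-1DPOZ libraries from Miz-1 floxPOZ mice that carry MB1-Cre, a recombinase expressed from the B cell locus mb1 (*Cd79a*) that removes the POZ domain of MIZ-1 in B cells. Both genotypes were on a C57BL/6 background, the mice of the study were 40 to 70 days old, and all libraries are of unstimulated cells. Other cells that remain in the selected fraction are not the target of that Cre. The labels call the libraries biological duplicates but do not say how many mice went into each, so p-values measure the spread between these libraries.

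Red cell precursors mature in the bone marrow and, in mice, also in the red pulp of the spleen. GATA1 and KLF1 are transcription factors that switch on the red cell program, KLF1 largely through CACCC elements such as the one of the adult beta-globin promoter. Later stages fill with hemoglobin, built from alpha- and beta-globin chains and heme, while a membrane skeleton of spectrin is tied to the bilayer by ankyrin (*Ank1*), protein 4.2 (*Epb42*) and the anion exchanger band 3 (*Slc4a1*). Reticulocytes have lost the nucleus and still hold globin mRNA. These genes are not known for a role in B cells. In a bulk library, fewer cells of a type and less RNA per cell cannot be told apart.

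Between 43026814 and 46387209 counts fell on genes in a library, and levels are given as CPM, counts scaled to a common library total with edgeR's TMM factors. B cell genes were abundant as the label says, a list of 11 pan-B genes summing to between 10953 and 12826 CPM. *Zbtb17*, which encodes MIZ-1, had 2087 and 1946 counts in the MIZ-1WT libraries and 1774 and 1669 in the MIZ-1DPOZ libraries, over all its exons together, so the deletion itself was not checked. *Xist* had 49 and 60 counts in MIZ-1WT and 38145 and 40838 in MIZ-1DPOZ, and all 4 Y-linked genes examined were lower in MIZ-1DPOZ (*Ddx3y* 15840 and 14896 counts against 680 and 622). Sex and genotype therefore cannot be told apart in any comparison below, and *Gata1* and *Alas2* are X-linked.

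No member differed between the genotypes when all 4 libraries were fitted, and the values of most of them rested on 1 library. MIZ-1DPOZ replicate 2 had the highest level of 9 of the 9 members. MIZ-1DPOZ replicate 1 had the lowest level of 5 of them, and MIZ-1WT replicate 1 the lowest of the other 4. The share of all tested genes with such an order was not counted. Summed over the members, the level was 45.0 and 57.9 CPM in MIZ-1WT replicates 1 and 2, 37.0 in MIZ-1DPOZ replicate 1 and 105.6 in MIZ-1DPOZ replicate 2. The MIZ-1DPOZ replicates thus lay on either side of both MIZ-1WT replicates in this sum, which is mostly *Hbb-bs* and *Hbb-bt*. Without these genes the sum was 5.87 and 8.49 CPM in MIZ-1WT, 5.95 in MIZ-1DPOZ replicate 1 and 18.2 in replicate 2. MIZ-1DPOZ replicate 1 then lay between the MIZ-1WT replicates, and replicate 2 above both.

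**Figure D1:**
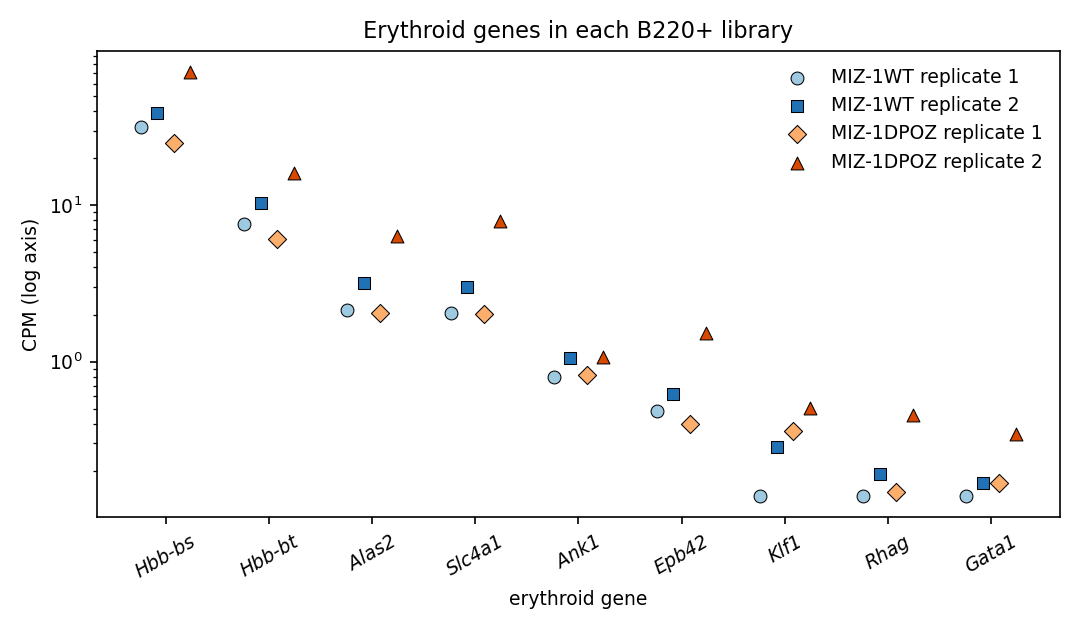
Level of each erythroid gene in CPM (log axis) in the 4 B220+ libraries, with 1 point per library and genes ordered by their MIZ-1WT mean. MIZ-1DPOZ replicate 2 is the highest point for 9 of 9 genes, while MIZ-1DPOZ replicate 1 lies below both MIZ-1WT libraries for *Hbb-bs*, *Hbb-bt*, *Slc4a1*, *Alas2* and *Epb42*. Against MIZ-1WT replicate 1, the gap exceeds counting error only for *Hbb-bs* and *Hbb-bt*.

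The beta-globin genes *Hbb-bs* (ENSMUSG00000052305, chr7:103826534-103828096, minus strand) and *Hbb-bt* (ENSMUSG00000073940, chr7:103812524-103813996, minus strand) gave most of the signal, between 82.8% and 87.0% of the members' counts in a library. Gene positions follow GENCODE on GRCm38 (mm10). *Hbb-bs* had 1374 and 1643 counts in the MIZ-1WT replicates, 1191 in MIZ-1DPOZ replicate 1 and 3128 in MIZ-1DPOZ replicate 2. These counts correspond to 31.5, 39.1, 25.0 and 71.3 CPM. Both MIZ-1WT libraries lay between the MIZ-1DPOZ libraries, so the groups overlapped. *Hbb-bt* had 333, 433, 288 and 708 counts in the same order, or 7.63, 10.3, 6.05 and 16.1 CPM, with the same order of libraries.

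*Hbb-bs* and *Hbb-bt* are near-identical copies, which limits how well their counts can be separated. Their coding sequences of 444 bases differ at 1 base, C417T, counted from 1 at the A of the start codon with the *Hbb-bs* base first. The 60 bases from 377 to 436 are shown here from the GENCODE transcripts, since they hold the only coding difference, which is in capitals. The *Hbb-bs* stretch is chr7:103826673-103826732 and the *Hbb-bt* stretch chr7:103812664-103812723 (GRCm38, minus strand).
Hbb-bs: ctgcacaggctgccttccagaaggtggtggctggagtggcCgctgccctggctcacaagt
Hbb-bt: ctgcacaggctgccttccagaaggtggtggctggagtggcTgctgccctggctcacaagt
Of all 50-base windows in the annotated transcripts, 53.2% of those of *Hbb-bs* and 58.3% of those of *Hbb-bt* were found in the other gene as well, and a read end within such a window matches both genes when taken alone. *Hbb-bt* took 19.5% of the counts of the pair in MIZ-1WT replicate 1 (95% exact binomial interval 17.7 to 21.5), 20.9% in MIZ-1WT replicate 2 (19.1 to 22.7), 19.5% in MIZ-1DPOZ replicate 1 (17.5 to 21.6) and 18.5% in MIZ-1DPOZ replicate 2 (17.2 to 19.7). The 4 intervals overlapped, and a shift between the copies was not tested. Intervals on counts cover counting error only, because reads are not independent molecules.

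*Alas2* (ENSMUSG00000025270, chrX:150547375-150570638, plus strand) encodes the erythroid 5-aminolevulinate synthase, the rate-limiting enzyme of heme synthesis in red cell precursors. It had 93 and 134 counts in the MIZ-1WT libraries, 97 in MIZ-1DPOZ replicate 1 and 278 in replicate 2, or 2.13, 3.19, 2.04 and 6.33 CPM. MIZ-1DPOZ replicate 2 was highest, and the other 3 libraries lay between 2.04 and 3.19 CPM. Exons of *Apex2* and *Mir3620* on the other strand overlap *Alas2*, and 11.5% of its 50-base windows are shared with them. The strand setting of the counting is not given in the sources used here, so reads of that stretch cannot be assigned with certainty.

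Among the membrane genes, *Slc4a1* (ENSMUSG00000006574, chr11:102348824-102366203, minus strand), which encodes band 3, had 89 and 126 counts in MIZ-1WT and 96 and 349 in MIZ-1DPOZ replicates 1 and 2. In CPM these are 2.04, 2.998, 2.02 and 7.95, the highest ratio between the MIZ-1DPOZ replicates of any member. *Epb42* (ENSMUSG00000023216, chr2:121017891-121037072, minus strand), which encodes protein 4.2, had 21, 26, 19 and 67 counts, or 0.481, 0.619, 0.399 and 1.53 CPM. *Epb42* therefore repeated the order of the globin genes at a far lower level. *Rhag* (ENSMUSG00000023926, chr17:40811126-40840754, plus strand) encodes the Rh-associated glycoprotein of the red cell membrane. It had 6 and 8 counts in MIZ-1WT and 7 and 20 in MIZ-1DPOZ, or 0.138, 0.190, 0.147 and 0.456 CPM, and was too low to be tested.

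*Ank1* (ENSMUSG00000031543, chr8:22974844-23150497, plus strand) did not follow this order as closely. Its counts were 35 and 44 in MIZ-1WT and 39 and 47 in MIZ-1DPOZ, or 0.802, 1.05, 0.819 and 1.07 CPM. The highest library exceeded the lowest by a ratio of 1.33, with a counting interval of 0.843 to 2.13 that includes 1. *Ank1* also overlaps the antisense gene *Gm15816*, with 4.76% of its windows shared.

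The transcription factors were near the limit of detection. *Klf1* (ENSMUSG00000054191, chr8:84901928-84905291, plus strand) had 6 and 12 counts in MIZ-1WT and 17 and 22 in MIZ-1DPOZ, or 0.138, 0.286, 0.357 and 0.501 CPM. It was the only tested member with both MIZ-1DPOZ libraries above both MIZ-1WT libraries, a pattern that 37.2% of all tested genes showed. *Klf1* needed the MIZ-1DPOZ libraries, where it was higher, to pass the filter of 10 counts in 2 libraries. *Gata1* (ENSMUSG00000031162, chrX:7959260-7978071, minus strand) had 6 and 7 counts in MIZ-1WT and 8 and 15 in MIZ-1DPOZ, or 0.138, 0.167, 0.168 and 0.342 CPM. Its groups did not overlap either, but by 1 count between MIZ-1WT replicate 2 and MIZ-1DPOZ replicate 1, and it was too low to be tested.

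Levels can be compared roughly between genes once divided by length, as CPM per kilobase of all annotated exons of a gene together. Reads without a unique alignment were not assigned to genes. Values of *Hbb-bs* and *Hbb-bt*, with 53.2% and 58.3% of their windows shared, may therefore be too low beside the other genes. On that scale *Hbb-bs* averaged 46.0 ± 6.99 (SD, n = 2) in MIZ-1WT and 62.7 ± 42.6 in MIZ-1DPOZ, and *Hbb-bt* 12.8 ± 2.68 and 15.8 ± 10.1. *Alas2* followed at 1.11 ± 0.311 and 1.74 ± 1.26, and *Slc4a1* at 0.515 ± 0.138 and 1.02 ± 0.858. In MIZ-1WT the ranges of these 4 genes did not overlap with those of their neighbours in the order. *Klf1* at 0.138 ± 0.0684 overlapped *Epb42* at 0.102 ± 0.0179, *Epb42* lay above *Rhag*, and *Rhag* (0.0701), *Ank1* (0.0684) and *Gata1* (0.0624) overlapped one another as neighbours. In MIZ-1DPOZ, *Alas2* and *Slc4a1* overlapped as well, as did every pair of neighbours from *Klf1* down to *Ank1*.

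The ratio between single libraries shows how far MIZ-1DPOZ replicate 2 lay from the rest. MIZ-1DPOZ replicate 2 over replicate 1 gave ratios of CPM from 1.31 (*Ank1*) to 3.94 (*Slc4a1*), with a median of 2.85 over the 9 members. *Hbb-bs* had a ratio of 2.85 (95% exact counting interval 2.66 to 3.05), *Alas2* 3.11 (2.46 to 3.96), *Epb42* 3.82 (2.27 to 6.74) and *Rhag* 3.10 (1.26 to 8.67). For 6 of 9 members the interval lay above 1, the exceptions being *Ank1*, *Klf1* and *Gata1*. Intervals were not computed for all tested genes, so this count has no overall share beside it. Of the 7 tested members, 5 were at least 2-fold higher in replicate 2 than in replicate 1 (*Hbb-bs*, *Hbb-bt*, *Slc4a1*, *Alas2* and *Epb42*), against 1.44% of all tested genes (210 of 14554).

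The MIZ-1WT replicates differed in the same direction of numbering but by less. MIZ-1WT replicate 2 over replicate 1 gave ratios from 1.21 (*Gata1*) to 2.08 (*Klf1*), with a median of 1.35, all 9 above 1 and 4 with an interval above 1. Shares over all tested genes were not counted for these either. MIZ-1DPOZ replicate 1 was close to MIZ-1WT replicate 1, with a median ratio of 0.989 and only the intervals of *Hbb-bs* and *Hbb-bt* below 1. Against MIZ-1WT replicate 2 its median ratio was 0.673, with 4 intervals below 1 (*Hbb-bs*, *Hbb-bt*, *Slc4a1* and *Alas2*). MIZ-1DPOZ replicate 2 had a median ratio of 2.97 to MIZ-1WT replicate 1 and 1.99 to MIZ-1WT replicate 2.

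**Figure D2:**
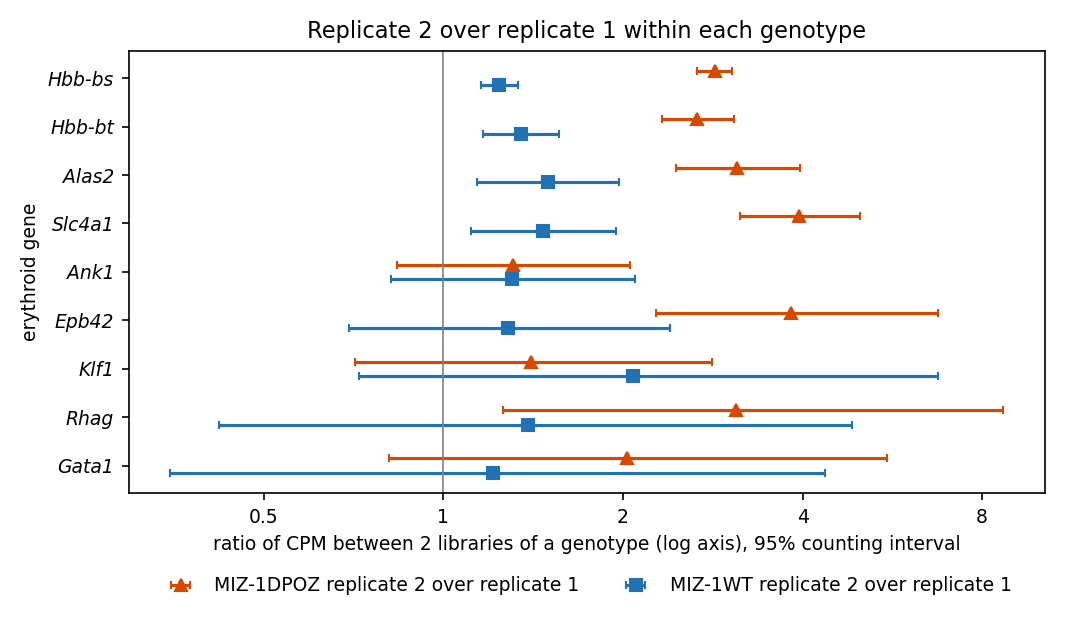
Ratio of CPM of replicate 2 over replicate 1 (log axis) for each erythroid gene, in MIZ-1DPOZ (triangles) and MIZ-1WT (squares), with bars for the 95% exact counting interval. The MIZ-1DPOZ ratios reach 3.94 and 6 of their 9 intervals lie above 1, while the MIZ-1WT ratios stay at or below 2.08.

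In the fit over all 4 libraries, 0 of the 7 tested members passed an adjusted p of 0.05 in either direction, against 21.1% of tested genes higher and 18.9% lower in MIZ-1DPOZ. None of the 7 had an unadjusted p under 0.05 in edgeR, and DESeq2's Wald test called 0 as well. The log2 fold change (MIZ-1DPOZ over MIZ-1WT) of *Hbb-bs* was 0.45 (standard error 0.45, adjusted p = 0.467, quasi-likelihood test of edgeR, adjusted by Benjamini-Hochberg over 14554 genes). That of *Hbb-bt* was 0.30 (standard error 0.44) and that of *Alas2* 0.65 (standard error 0.53). *Slc4a1* reached 0.98 (standard error 0.62, edgeR adjusted p = 0.253) and *Epb42* 0.79 (standard error 0.64). *Klf1* had the largest value, 1.01 (standard error 0.47, edgeR adjusted p = 0.142), and *Ank1* the smallest, 0.03 (standard error 0.28). The median over the 7 was 0.65, beside -0.006 over all tested genes. Standard errors ran from 0.28 to 0.64, so these p-values do not show equal levels. In the fit with no filter on counts, *Gata1* had a log2 fold change of 0.72 (edgeR adjusted p = 0.483) and *Rhag* 0.85 (0.428).

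The direction depended on which MIZ-1DPOZ library was kept. Without MIZ-1DPOZ replicate 1, 5 of 7 members were higher in the remaining MIZ-1DPOZ library, where 18.0% of all tested genes were. These were *Hbb-bs* at a log2 fold change of 1.02 (edgeR adjusted p = 0.00123), *Hbb-bt* at 0.85 (0.00969), *Slc4a1* at 1.66 (0.00276), *Alas2* at 1.25 (0.0107) and *Epb42* at 1.47 (0.0202). Without MIZ-1DPOZ replicate 2, 1 of 7 was lower, where 18.7% of all tested genes were, namely *Hbb-bs* at -0.49 (edgeR adjusted p = 0.0266). The other values without replicate 2 were -0.56 for *Hbb-bt*, -0.31 for *Slc4a1*, -0.37 for *Alas2*, -0.45 for *Epb42*, -0.16 for *Ank1* and 0.77 for *Klf1*, none past the threshold. *Klf1* was thus the only tested member with a positive value whichever library was left out, though it passed the filter only with the MIZ-1DPOZ libraries. These fits compare a single library with 2 and assume that it varies like the others.

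**Figure D3:**
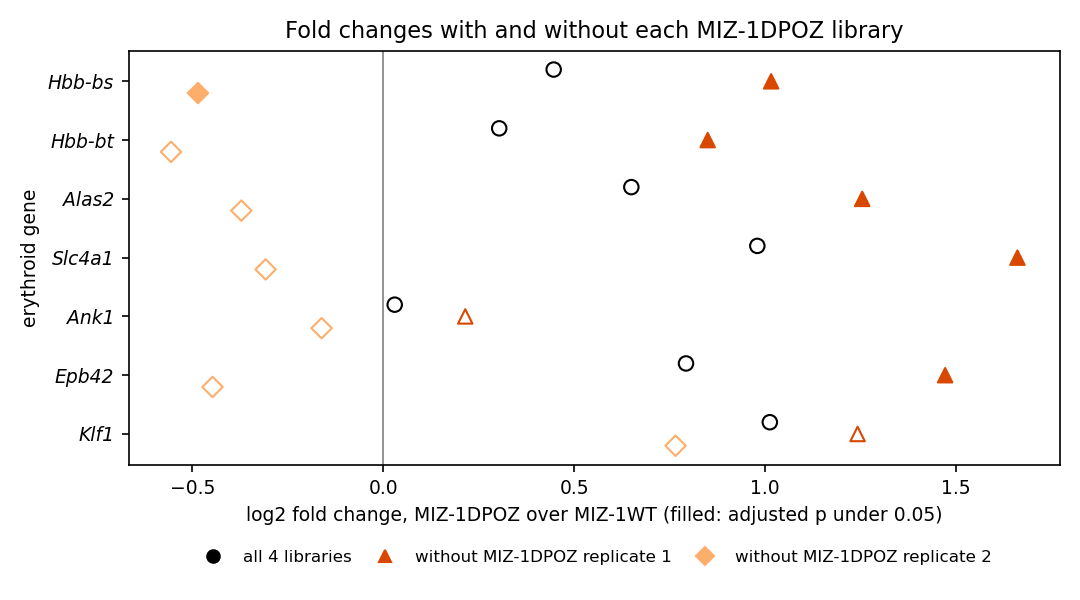
Log2 fold change, MIZ-1DPOZ over MIZ-1WT, of the 7 tested erythroid genes with all 4 libraries (circles), without MIZ-1DPOZ replicate 1 (triangles) and without MIZ-1DPOZ replicate 2 (diamonds), where filled symbols have an edgeR adjusted p under 0.05. With all libraries no symbol is filled, and for 6 of the 7 genes the values without each library lie on opposite sides of 0, the exception being *Klf1*.

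The members' promoters are shown as a description, and a link between their motifs and the order of the libraries was not tested. RefSeq promoter windows (GRCm38.p6) matched 7 of the 9 members, all but *Slc4a1* and *Ank1*. The 250 bases before each RefSeq start were searched on both strands for a GATA motif (AGATAA or TGATAA) and a CACCC motif (CCACACCC or CCACCC), which do not overlap each other. The 4 windows below hold the beta-globin pair, the heme enzyme and a factor, each read 5′ to 3′ along the gene with matches in capitals. They are chr7:103827929-103828178 (*Hbb-bs*, minus strand), chr7:103813924-103814173 (*Hbb-bt*, minus strand), chrX:150547167-150547416 (*Alas2*, plus strand) and chr8:84901732-84901981 (*Klf1*, plus strand).
Hbb-bs: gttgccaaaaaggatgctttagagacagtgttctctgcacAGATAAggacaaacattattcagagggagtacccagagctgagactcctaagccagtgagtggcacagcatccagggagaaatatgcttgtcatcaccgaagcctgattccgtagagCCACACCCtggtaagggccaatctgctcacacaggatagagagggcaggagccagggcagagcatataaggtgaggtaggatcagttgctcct
Hbb-bt: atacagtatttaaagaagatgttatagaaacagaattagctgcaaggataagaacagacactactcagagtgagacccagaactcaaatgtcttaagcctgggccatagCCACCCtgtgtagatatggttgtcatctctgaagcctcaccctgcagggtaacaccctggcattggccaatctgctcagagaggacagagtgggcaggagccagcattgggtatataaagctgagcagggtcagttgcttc
Alas2: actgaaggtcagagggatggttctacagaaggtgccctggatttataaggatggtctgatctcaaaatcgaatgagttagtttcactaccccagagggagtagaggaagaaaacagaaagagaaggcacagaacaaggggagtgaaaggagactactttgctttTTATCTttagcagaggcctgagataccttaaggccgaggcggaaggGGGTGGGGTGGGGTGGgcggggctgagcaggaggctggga
Klf1: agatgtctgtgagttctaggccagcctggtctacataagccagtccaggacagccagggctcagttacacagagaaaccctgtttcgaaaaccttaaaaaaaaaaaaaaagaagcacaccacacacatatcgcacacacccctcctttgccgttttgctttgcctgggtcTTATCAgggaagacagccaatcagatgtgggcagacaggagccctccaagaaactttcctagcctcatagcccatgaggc
A GATA match was found in 5 of the 7 windows (*Hbb-bs*, *Klf1*, *Alas2*, *Epb42* and *Rhag*), where 16.6% of 32851 RefSeq promoter windows of that length hold one. A CACCC match was found in 5 of the 7 (*Hbb-bs*, *Hbb-bt*, *Gata1*, *Alas2* and *Rhag*), where 30.1% hold one. *Alas2* had 3 CACCC matches in a row on the other strand between bases -40 and -25, and the *Hbb-bs* match lay between bases -93 and -86. These matches are letters in a window and not measured sites.

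Other genes of the red cell lineage were examined in 6 lists, with 69 genes listed and 59 tested. Of these 59, 15 were higher and 10 lower in MIZ-1DPOZ by edgeR's adjusted p, which is 25.4% and 16.9%, beside 21.1% and 18.9% of all tested genes. Their median log2 fold change was 0.33. Without MIZ-1DPOZ replicate 1 the counts were 21 higher and 9 lower, where 18.0% and 15.3% of all tested genes were called, and without MIZ-1DPOZ replicate 2 they were 11 and 11, where 20.7% and 18.7% were. Without MIZ-1WT replicate 1 they were 4 and 5 (9.39% and 5.75% of all tested genes), and without MIZ-1WT replicate 2 they were 7 and 5 (11.8% and 7.59%). Both MIZ-1DPOZ libraries lay above both MIZ-1WT libraries for 27 of the 59 (45.8%), beside 37.2% of all tested genes.

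Among the other globin genes, the alpha-globin genes were, like the members, highest in MIZ-1DPOZ replicate 2, and lowest in MIZ-1DPOZ replicate 1. *Hba-a1* had 147 and 131 counts in MIZ-1WT and 115 and 323 in MIZ-1DPOZ replicates 1 and 2, and *Hba-a2* had 94, 92, 74 and 230. Their log2 fold changes were 0.59 and 0.64 (edgeR adjusted p = 0.381 and 0.382). The 2 share 72.3% (*Hba-a1*) and 89.3% (*Hba-a2*) of their 50-base windows, so the split between them is uncertain. *Hbb-bh1*, a beta-like globin gene of the embryo, shares no window and behaved otherwise, with 13 and 9 counts in MIZ-1WT and 42 and 60 in MIZ-1DPOZ. Of the 3 tested genes of that list it alone rose, by 2.12 on the log2 scale (standard error 0.38, edgeR adjusted p = 0.00953), though it was not called without MIZ-1WT replicate 2. Like *Klf1*, *Hbb-bh1* passed the filter only with the MIZ-1DPOZ libraries, where it was higher. *Hba-x*, *Hbb-bh2*, *Hbb-y* and *Hbq1a* were at 0 in every library, where 3 counts is the limit a count of 0 allows.

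In the red cell membrane list, 4 of 16 tested genes were higher, among them *Aqp1*, *Ermap* and *Icam4*, and 1 was lower (*Xk*). *Sptb*, which encodes a spectrin chain, was also highest in MIZ-1DPOZ replicate 2, with 39, 27, 34 and 89 counts, but lowest in MIZ-1WT replicate 2. The water channel gene *Aqp1* had 32 and 32 counts against 78 and 115, a log2 fold change of 1.504. *Icam4* had 3 and 5 counts against 18 and 15 (log2 fold change 1.92). *Icam4*, like *Gfi1b* and *Nfe2* below, passed the filter only through the MIZ-1DPOZ libraries. *Ermap* and *Icam4* were no longer called without MIZ-1DPOZ replicate 2, at adjusted p = 0.098 and 0.0526, and *Icam4* was not called without MIZ-1DPOZ replicate 1 either (0.0812). With all 4 libraries, the call of *Icam4* was also lost with DESeq2's Wald test (adjusted p = 0.152) and with a replicate block (0.0531).

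Of 13 tested regulators, 3 were higher (*Gfi1b*, *Nfe2* and *Tal1*) and 5 lower (*Bcl11a*, *Ldb1*, *Lmo2*, *Lyl1* and *Zbtb7a*). *Tal1*, a partner of GATA1 in red cell precursors, had 11 and 15 counts in MIZ-1WT and 38 and 65 in MIZ-1DPOZ (log2 fold change 1.89, edgeR adjusted p = 0.0194). *Nfe2* had 6, 9, 23 and 41 counts (log2 fold change 1.99), and was not called without MIZ-1DPOZ replicate 2 (adjusted p = 0.0803). *Gfi1b*, which encodes a transcriptional repressor that acts within the erythroid and megakaryocyte lineages, had 0 and 1 counts in MIZ-1WT and 20 and 18 in MIZ-1DPOZ. The ratio over the pooled counts was 35.6, with a counting interval of 6.01 to 1442. The 5 lower genes are also used by B cells. *Bcl11a* had 13874 and 11990 counts against 7264 and 7668 (log2 fold change -0.88), *Lmo2* fell by 0.61 and *Lyl1* by 0.47 on the log2 scale.

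*Epor*, the erythropoietin receptor gene, was higher in both MIZ-1DPOZ libraries and slightly lower in replicate 2 than in replicate 1. It had 28 and 25 counts in MIZ-1WT and 149 and 112 in MIZ-1DPOZ, or 0.642, 0.595, 3.13 and 2.55 CPM. Its log2 fold change was 2.20 (standard error 0.23, edgeR adjusted p = 0.0021), and stayed between 2.04 and 2.34 with any 1 library left out. *Gfi1b* also stayed higher in MIZ-1DPOZ in these fits, but it passed the filter only through the MIZ-1DPOZ libraries. The filter was not redone in these fits, and *Gfi1b* would not meet it with 1 MIZ-1DPOZ library left out. *Tal1*, *Nfe2*, *Aqp1*, *Ermap* and *Icam4* were not called when either MIZ-1WT library was left out. *Tfrc*, the transferrin receptor gene, which dividing B cells use too, had 6636 and 6576 counts against 6273 and 5375 and fell by 0.28 on the log2 scale. Those were the 2 calls among 5 tested genes of receptors and iron uptake.

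Most heme synthesis genes other than *Alas2* are used in all cells. Of 13 tested, 3 were higher, among them *Tmem14c* at 0.53 and *Uros*, and 2 lower (*Slc25a37* at -0.69 and *Slc25a38*), and none differed by 2-fold between the MIZ-1DPOZ replicates. Among 9 tested red cell enzymes, 3 were higher (*Blvrb* at 0.56, *Prdx2* at 0.37 and *Bpgm*) and 1 lower (*Bnip3l* at -0.37). Over the 59 tested genes, 10 were at least 2-fold higher in MIZ-1DPOZ replicate 2 than in replicate 1, among them *Hba-a1*, *Hba-a2*, *Sptb*, *Dmtn*, *Kel*, *Rhd*, *Sox6*, *Trim10* and *Hemgn*. None of these 10 was called between the genotypes with all 4 libraries. Picking genes by a gap between replicates favours that outcome, since the gap widens the spread in the test.

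**Figure D4:**
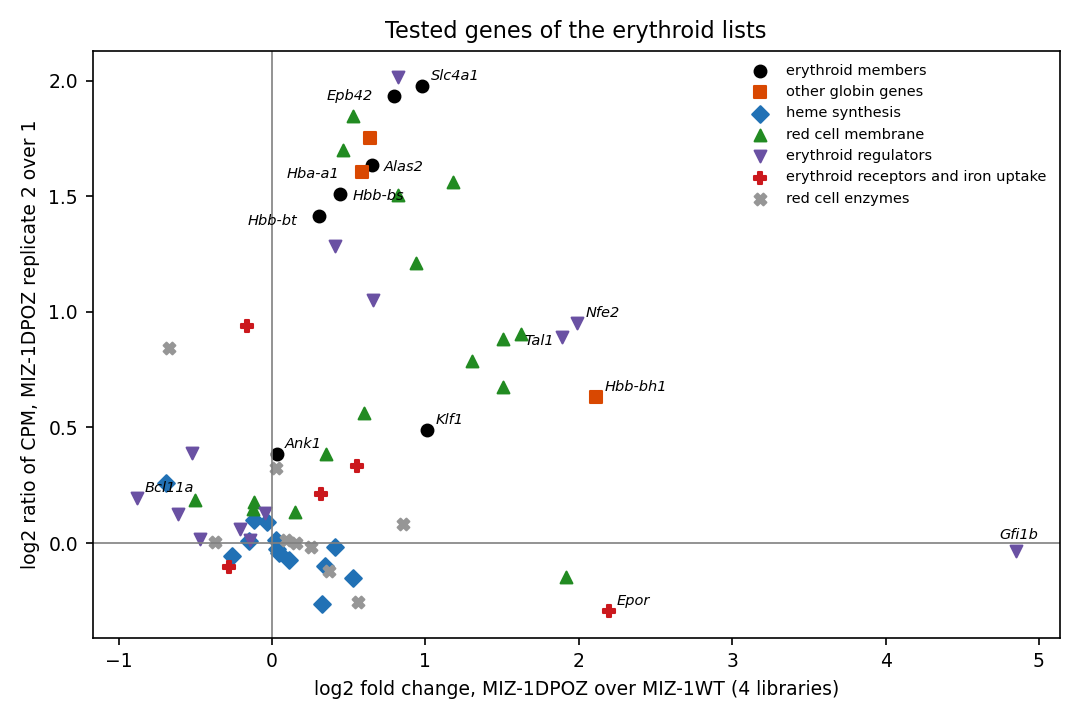
Tested genes of the erythroid lists, with the log2 fold change between genotypes on the horizontal axis and the log2 ratio of CPM of MIZ-1DPOZ replicate 2 over replicate 1 on the vertical axis, 1 point per gene and a symbol per list. *Slc4a1*, *Epb42*, *Alas2*, *Hbb-bs*, *Hbb-bt* and the alpha-globin genes lie high and near the middle. *Epor* (2.20) and *Gfi1b* lie to the right, below 0 on the vertical axis, and *Hbb-bh1* (2.12) to the right, above 0.

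Markers of other cells that could share a B220+ selection are given beside the members, and their part in the result was not tested. Beside the counts of genes called in each list, 21.1% of all tested genes were higher and 18.9% lower in MIZ-1DPOZ. Red pulp macrophage genes, which mark the cells that take up old red cells, were higher in MIZ-1DPOZ for 13 of 13 genes, but they ordered the MIZ-1DPOZ libraries the other way. Their summed level was 797 and 1069 CPM in MIZ-1WT, 4890 in MIZ-1DPOZ replicate 1 and 2957 in replicate 2. *Vcam1* had 11578 and 14509 counts against 72122 and 39455, and *Slc40a1*, the iron exporter gene, 3526 and 5152 against 34938 and 19764.

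Neutrophil genes summed to 13.8 and 4.26 CPM in MIZ-1WT and 8.49 and 16.8 in MIZ-1DPOZ, so they too were highest in MIZ-1DPOZ replicate 2. There, 4 of 6 tested genes were at least 2-fold above MIZ-1DPOZ replicate 1, against 1.44% of all tested genes. Between the genotypes, 2 of 6 were higher in MIZ-1DPOZ (*Ltf* and *Retnlg*, which passed the filter only through the MIZ-1DPOZ libraries). *S100a9* had 357, 88, 180 and 311 counts and *S100a8* 212, 72, 125 and 236. Both of these genes were higher in MIZ-1WT replicate 1 than in MIZ-1WT replicate 2, whereas all 9 members were lower. The defining genes *Elane* and *Ly6g* had at most 4 counts in a library.

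Megakaryocytes share GATA1 with red cells, and their list summed to 56.0, 51.8, 75.5 and 64.8 CPM in the order of the libraries. The sum was mostly *Itgb3* (2081, 1729, 2361 and 2107 counts) and *Clec1b* (208, 246, 772 and 476), while *Gp1bb* was at 0 in all 4 libraries and 7 of 13 genes had under 10 counts in every library. Of 6 tested, 3 were higher (*Clec1b*, *Vwf* and *Pf4*, the last of which passed the filter only through the MIZ-1DPOZ libraries). Mast cells, basophils and eosinophils also use GATA1. Their list summed to 28.7, 29.2, 24.8 and 23.8 CPM, led by *Il5ra* (1057, 984, 539 and 603 counts) and *Prg2* (91, 175, 544 and 346). *Il5ra* alone gave 24.2, 23.4, 11.3 and 13.7 CPM, so the sum rested largely on that gene. Of 5 tested genes, 1 was higher and 1 lower, and *Mcpt8* and *Epx* were at 0.

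Early progenitor genes summed to between 31.4 and 32.9 CPM in all libraries, led by *Myb* (823, 854, 600 and 566 counts) and *Flt3* (417, 357, 747 and 635), with 1 of 4 higher and 1 lower. T cell genes summed to 77.4, 58.1, 72.8 and 77.2 CPM, with *Cd4* the only 1 of 9 to rise (335 and 240 against 713 and 557 counts) and *Lck* at 1731, 1411, 1629 and 1627. In the pan-B list 1 of 11 was higher (*Cr2*, at a log2 fold change of 0.25) and 8 lower, with *Ms4a1* at -0.23. The pan-B sum was 10953 and 11558 CPM in MIZ-1DPOZ replicates 1 and 2, so the gap between those replicates in the members had no counterpart of similar size in the B cell genes.

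**Figure D5:**
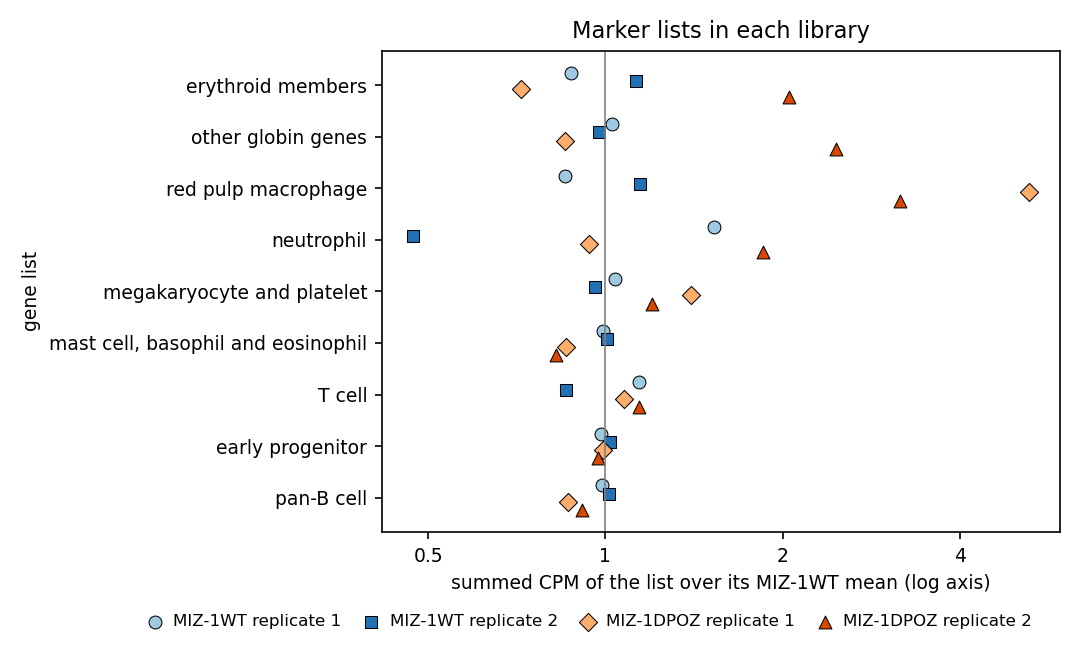
Summed CPM of each marker list in each library, divided by its mean over the MIZ-1WT libraries (log axis), with 1 symbol per library. The erythroid genes and the other globin genes are highest in MIZ-1DPOZ replicate 2, the red pulp macrophage genes are highest in MIZ-1DPOZ replicate 1 (4890 CPM), and the pan-B and early progenitor lists stay close to 1.

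The genes whose pattern over the 4 libraries was most like the members' were found by distance. The root mean square distance was taken between a gene's centred log2 CPM and the average centred profile of the 7 tested members, over 12285 tested protein-coding genes. The nearest was *Hemgn* (0.0823), which encodes the erythroid nuclear protein hemogen, with 33, 50, 36 and 81 counts. Among the other 9 of the nearest 10 were *Sox6* (0.143), *Ccl5* (0.146), *Itga5* (0.158), *Egr1* (0.179), *Kel* (0.184), *Adgrd1* (0.201) and *Gm10320* (0.207). Of those named, *Hemgn*, *Sox6* and *Kel* belong to the erythroid lists. Counts were low for *Sox6* (8, 11, 11 and 21), *Kel* (10, 20, 11 and 33) and *Itga5* (6, 10, 9 and 17), so their likeness is uncertain. The members themselves lay at distances from 0.115 (*Alas2*) to 0.414 (*Klf1*), with *Ank1* at 0.389. With 4 libraries such a likeness is a description, and it is set mainly by the height of MIZ-1DPOZ replicate 2.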

How the data were processed

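The authors trimmed paired-end reads with Trimmomatic, mapped them to mm10 (GRCm38) with TopHat2 (version 2.1.0 in the submitters' processing notes), assigned them to Ensembl genes by HTSeq and deposited raw counts per gene. The counts were neither normalized nor pooled, and the strand setting and Ensembl release are not given in the sources used here. Lines of the table that name no gene were left out of library sizes: reads outside genes were 21.1% to 27.2% of the table, ambiguous reads 0.281% to 0.302% and reads without a unique alignment 42.8% to 44.1%. Columns map to libraries by name, and libraries were grouped by the genotype in their titles.

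From the counts, the 14554 of 41214 genes reaching 10 counts in 2 or more libraries were tested with edgeR version 4.0.16 in R version 4.3.3, with TMM factors from 0.977 to 1.03, the quasi-likelihood test without a replicate block, and p-values adjusted by Benjamini-Hochberg across the tested genes at a threshold of 0.05. *Gata1* and *Rhag* did not pass that filter. Ratios of single libraries carry an exact 95% interval from the binomial distribution of both counts. Standard errors given with edgeR values were back-calculated, as the absolute log2 fold change over the square root of the quasi-likelihood F statistic. Profiles used log2 CPM with a prior count of 2. Alternatives were no filter on counts, DESeq2 size factors, DESeq2's own Wald test (version 1.42.0), a replicate block, removal of 199 immunoglobulin segments, and leaving out each library. Fits without a library kept the genes that passed the filter with all 4 libraries. The scripts were tested on simulated counts.

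The members and lists were chosen with earlier results of these data known. All members were named, with the 3 genes of smallest p among those called in each other erythroid list, *Hba-a1*, *Hba-a2*, *Epor* and *Tfrc* whatever their values, the 2 genes of highest CPM in each list of another cell type, and the 10 genes nearest to the members. Other genes named with values were chosen after their values were seen, as were the counts of other erythroid genes without each library. Some genes that meet this rule are not reported here. Symbols and positions came from GENCODE, and promoter sequences from RefSeq.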

Additional observations from a re-analysis of the deposited data

How the results depend on the processing

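With all 4 libraries kept, the 5 other settings (DESeq2 size factors, DESeq2's Wald test, no filter, a replicate block and removal of immunoglobulin segments) gave 35 values for the members, all 35 above 0 and 0 of them called, with adjusted p from 0.135 to 0.978. Leaving out a library changed more. The number of members called ranged from 0 to 5, the median log2 fold change of the members from -0.37 to 1.24, and the number of all genes called from 2204 to 5739, with 2204 without MIZ-1WT replicate 1 and 2825 without MIZ-1WT replicate 2. Without MIZ-1DPOZ replicate 1, 5 members were called and the median was 1.24, and without MIZ-1DPOZ replicate 2, 1 member was called and the median was -0.37. Values ranged from -0.49 to 1.02 for *Hbb-bs*, -0.56 to 0.85 for *Hbb-bt*, -0.31 to 1.66 for *Slc4a1*, -0.37 to 1.25 for *Alas2*, -0.45 to 1.47 for *Epb42* and -0.16 to 0.23 for *Ank1*, which was also below 0 without MIZ-1WT replicate 1 (-0.15). By construction these fits hold 3 libraries. The replicate block called 4732 genes in place of 5822 and 0 members, with a median of 0.50. Same-numbered libraries deviated from their group means with a correlation of -0.0688 over genes, and the 2 pairs share only a number. Depth limits *Klf1*, *Gata1* and *Rhag* most, with 6 to 22 counts per library.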

Other observations

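Among the 210 genes at least 2-fold higher in MIZ-1DPOZ replicate 2 than in replicate 1, 15 (7.14%) were members or of the other erythroid lists. These 15 are 22.7% of the 66 tested erythroid genes, which make up 0.453% of all tested genes. Myeloid genes, named after their values were seen, were also among the 210. *Chil3*, a chitinase-like gene of macrophages and neutrophils, had 25 and 7 counts in MIZ-1WT and 14 and 380 in MIZ-1DPOZ replicates 1 and 2. *Hp*, the haptoglobin gene, whose product binds free hemoglobin, had 23, 4, 35 and 175 counts. *F13a1*, the gene of coagulation factor XIII subunit A, had 32, 30, 112 and 473 counts, and *Cx3cr1*, a chemokine receptor gene of monocytes, had 49, 21, 112 and 225. *Chil3* and *Hp* were lower in MIZ-1WT replicate 2 than in MIZ-1WT replicate 1, and *F13a1* and *Cx3cr1* were higher in both MIZ-1DPOZ libraries than in either MIZ-1WT library.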
